A study of Mus musculus with 12 samples.

Results

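Cytosolic ribosomal protein genes encode the protein part of the ribosome that translates nuclear transcripts. The set described here held 83 of the 46078 genes counted, 52 of the large subunit and 31 of the small subunit. Members were protein-coding genes whose mouse symbol was Rpl or Rps followed by a number and at most a short suffix, plus Rplp0, Rplp1, Rplp2 and Rpsa. Pseudogenes and the S6 kinase genes were left out. No measured value entered this rule. Of the 83 members, 81 had enough counts to be tested. The testis paralog Rpl10l had 0 counts in every pool, and the muscle paralog Rpl3l had at most 5 counts in a pool.

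RNA came from ventrolateral white matter of the spinal cord of C57Bl6 mice, cut out by laser capture. Naïve and injured tissue was taken at each of 2 ages, giving 4 groups of 3 replicate samples of tissue pooled from 5 mice, called pools below. The labels do not say that the replicates of a group came from separate mice, and p-values then measure only the spread between these samples, which may be technical. Per the study's methods, young mice were 6 weeks and middle-aged mice 8 months old. Injured mice had received lysolecithin, a detergent-like lipid that strips myelin, in the ventrolateral white matter 72 h (day 3) earlier, and naïve mice had not, so that lysolecithin and the injection itself cannot be told apart. The labels name no transgene or other allele, and RNA was amplified while the libraries were built. Each pool gave between 9834447 and 12807437 counts on genes. In bulk tissue, a lower or higher share of a cell type and a change of RNA per cell cannot be told apart, and the lesions held other cells than naïve tissue. Summed over 9 myeloid markers, the level was 104 to 140 CPM (counts scaled to a common library size with edgeR's TMM factors) in young naïve, 164 to 244 CPM in middle-aged naïve, 2022 to 2075 CPM in young injured and 2113 to 2806 CPM in middle-aged injured pools. Oligodendrocytes are the cell type that defines white matter. The sum of 8 of their markers was 88926 to 104823 CPM in young naïve and 54477 to 62195 CPM in middle-aged naïve pools. After injury this sum was 19311 to 21642 CPM in young and 8479 to 13149 CPM in middle-aged pools. Markers of dividing cells, 6 in all, summed to at most 12.3 CPM in naïve pools and to at least 372 CPM in injured pools. No marker of these 3 lists was at 0 throughout a group, and their part in the results below was not tested. Of the 4 neutrophil markers, 3 were at 0 in all young naïve and 2 in all middle-aged naïve pools, and their sum did not pass 3.08 CPM in any pool.

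A ribosome needs roughly equal amounts of its proteins, and their genes are usually transcribed and translated as a block. Many of these mRNAs begin with a C followed by a run of pyrimidines, the terminal oligopyrimidine (TOP) motif, through which the mTOR kinase and the RNA-binding protein Larp1 adjust their translation to growth conditions. Some proteins have roles or close copies of their own. Rps6 is phosphorylated by S6 kinases, Rpl5 and Rpl11 bind the ubiquitin ligase Mdm2 and so link ribosome assembly to p53, and paralogs such as Rpl22l1 or Rps27l can take the place of their parent protein in the ribosome.

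The regions around start sites were searched for such runs. RefSeq start regions on GRCm38.p6 were at hand for 63 of the 83 members, and 30 bases around the annotated start, from 10 before it, are printed for members that the results below turn on. Capitals mark the longest pyrimidine run that began with C within 10 bases of the annotated start and held at least 5 bases. Rps6 (chr4:86857348-86857377, minus strand), the acidic stalk gene Rplp2 (chr7:141447641-141447670, plus strand) and Rps27 (chr3:90213629-90213658, minus strand) held runs of 10, 9 and 9 bases. Rps2 (chr17:24720053-24720082, plus strand) had a run of 6 bases that began after its RefSeq start. This start lies inside the longer span of the gene in GENCODE, and no start further upstream was examined. For Rps27l, too, 2 starts are annotated. The first (chr9:66946076-66946105, plus strand), which is printed, had a run of 7 bases that ended before the start. The second (chr9:66946403-66946432, plus strand), which is not printed, had none. Rpl22 likewise has 2 annotated starts. The first (chr4:152324426-152324455, plus strand) had a run of 5 bases that also ended before the start. The second (chr4:152325716-152325745, plus strand) had none.
Rps6: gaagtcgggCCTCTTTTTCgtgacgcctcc
Rplp2: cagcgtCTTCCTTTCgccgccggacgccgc
Rps27: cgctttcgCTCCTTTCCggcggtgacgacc
Rps2: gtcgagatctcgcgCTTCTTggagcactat
Rps27l: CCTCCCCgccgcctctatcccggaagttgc
Rpl22, first start: CTTCTggaatgttccagctcccactgacag
Rpl22, second start: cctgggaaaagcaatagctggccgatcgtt

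Such a run was found near 1 or more starts of 39 of the 63 members (61.9%), and of 34.4% of all 27025 genes with a start region. Runs wholly before a start were counted too, so these shares do not show how many mRNAs begin with a run. In the region from 250 bases before to 50 after a start, CTTTCC, which lies inside many such runs, was found on the gene strand in 41.3% of members and 16.0% of all genes. The ETS-type motif CCGGAAG was found on either strand in 39.7% of members and 9.93% of all genes, and the YY1-type motif GCCATNTT in 20.6% and 6.96%. GC boxes (GGGCGG, either strand) were found in 61.9% and 38.2%, and TATAAA on the gene strand in 9.52% and 9.77%. These are matches of letters in a window, not sites of binding. Members with and without a pyrimidine run near the start had close median log2 fold changes after injury. These were 0.91 for 37 tested members and 0.89 for 24 in young mice, and 0.67 and 0.70 in middle-aged mice.

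The share of all counts that fell on ribosomal protein genes was higher in every injured pool than in every naïve pool. It was 0.533%, 0.588% and 0.601% in the young naïve pools and 0.708%, 0.936% and 0.651% in the middle-aged naïve pools. After injury it was 1.15%, 1.23% and 1.09% in young and 1.26%, 1.33% and 1.22% in middle-aged mice. By group this was 0.574% ± 0.0362, 0.765% ± 0.151, 1.16% ± 0.0660 and 1.27% ± 0.0537 (SD, n = 3). Middle-aged naïve pool 2 stood apart from the other naïve pools, as the plot of the share of counts shows. Counting error was small beside these differences. The 95% Clopper-Pearson interval of the lowest pool was 0.529% to 0.537%, which covers counting error only. Within the set, the balance of the subunits hardly moved, with 65.4% to 67.9% of the counts on large subunit genes in each pool. Rpl4, a large subunit gene, took the most counts in every pool.

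**Figure D1:**
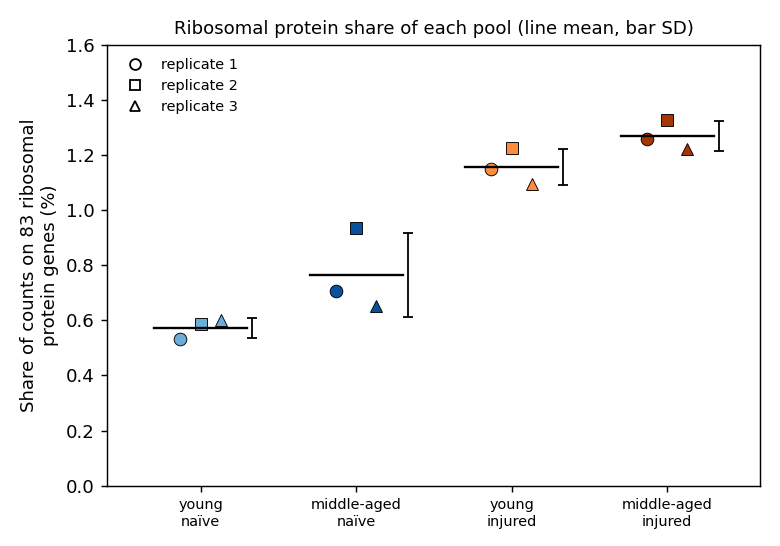
Share of each pool's counts (%, vertical axis from 0) that fell on the 83 cytosolic ribosomal protein genes, by group, with 1 point per pool, a line at the group mean and a bar of 1 SD. The injured pools lie between 1.09% and 1.33%, all above the naïve pools, and middle-aged naïve replicate 2 lies at 0.936% against 0.651% and 0.708% in the other pools of its group.

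To determine how the genes responded to demyelination in young mice, injured and naïve pools were compared gene by gene with edgeR's quasi-likelihood test, and a gene was called where its adjusted p over all 15866 genes tested was under 0.05. Of 81 ribosomal protein genes 72 were called, 71 higher and 1 lower (Rpl22), where 54.6% of all genes tested were called, 28.3% higher and 26.3% lower. The median log2 fold change was 0.85 (1.80-fold), with the middle 50% of members between 0.64 and 1.13, against a median of 0.00054 for all genes tested. Of 50 large subunit genes 44 rose, and of 31 small subunit genes 27 rose. In 76 of the 83 members each young injured pool was above each young naïve pool, an order that 35.0% of all genes tested had.

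In middle-aged mice 59 of the 81 genes were called, 58 higher and again Rpl22 lower, where 58.5% of all genes tested were called, 29.2% higher and 29.3% lower. The median log2 fold change was 0.64 (1.56-fold), against -0.03 for all genes tested. Each middle-aged injured pool was above each middle-aged naïve pool for 50 members, an order that 31.5% of all genes tested had. This age group holds the naïve pool that stood apart. Without middle-aged naïve replicate 2, 72 of the 81 genes were called, 71 higher, with a median of 0.91.

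At both ages 58 genes rose and 1 fell, 13 were called in young mice alone and none in middle-aged mice alone. Called at neither age were 9 members (Rpl22l1, Rpl24, Rpl36, Rpl38, Rplp1, Rps14, Rps15, Rps21 and Rps27). Of all genes tested 54.6% were called in young and 58.5% in middle-aged mice. How many of all genes were called at both ages, at 1 age or at neither was not counted. Across the 80 members other than Rpl39l, which had no counts in naïve pools, the log2 fold changes at the 2 ages had a Pearson r of 0.86, as a description over genes that share their libraries. The estimate was smaller in middle-aged mice for 64 of 81 members. It was larger there for 17 members and for 7191 of all 15866 genes tested. The difference between the ages was tested directly as an interaction and edgeR called 0 of 81 members, where 0.139% of all genes tested were called, 0.0567% with a higher and 0.0819% with a lower change in middle-aged mice. The smallest adjusted p was 0.501, 1 member and 1574 of all genes tested had an unadjusted p under 0.05, and DESeq2 also called 0, with 1 at an unadjusted p under 0.05. The median of this difference was -0.16, and 0.06 without middle-aged naïve replicate 2. Calls in young mice alone are therefore not shown to be differences between the ages.

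**Figure D2:**
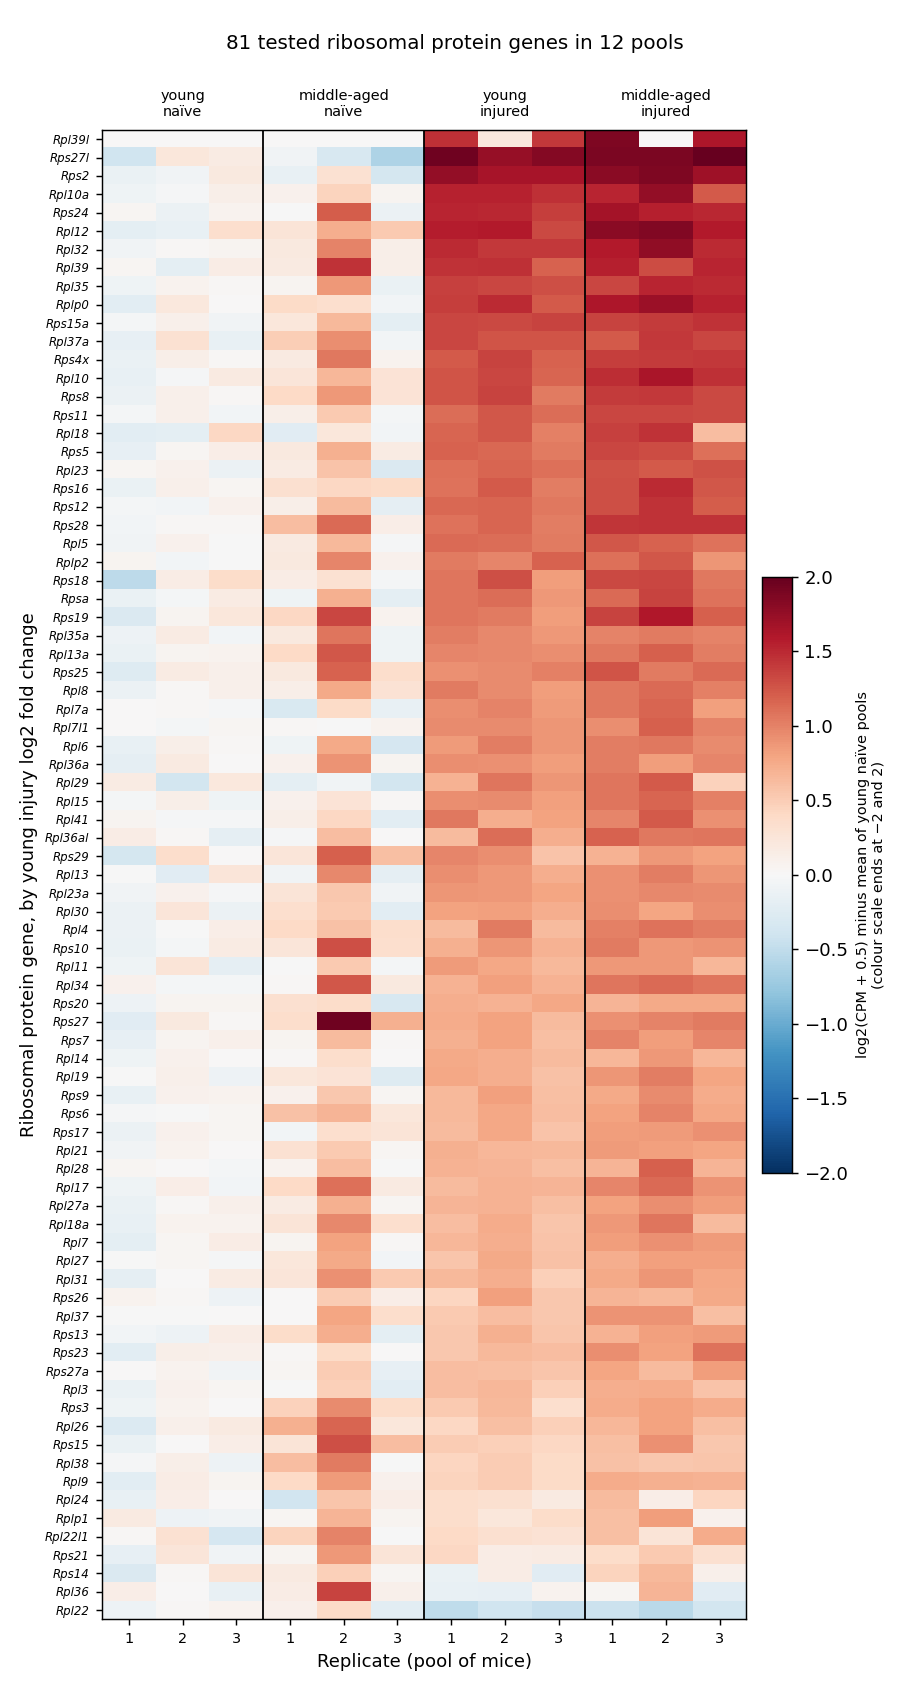
Levels of the 81 tested ribosomal protein genes (vertical axis, ordered by log2 fold change after injury in young mice) in 12 pools (horizontal axis), as log2(CPM + 0.5) minus the mean of the young naïve pools, with red for higher and blue for lower. Most genes are red in all 6 injured pools, Rpl22 at the bottom is blue there, and middle-aged naïve replicate 2 is the only naïve pool with most genes well above the young naïve mean (median 0.68).

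**Figure D3:**
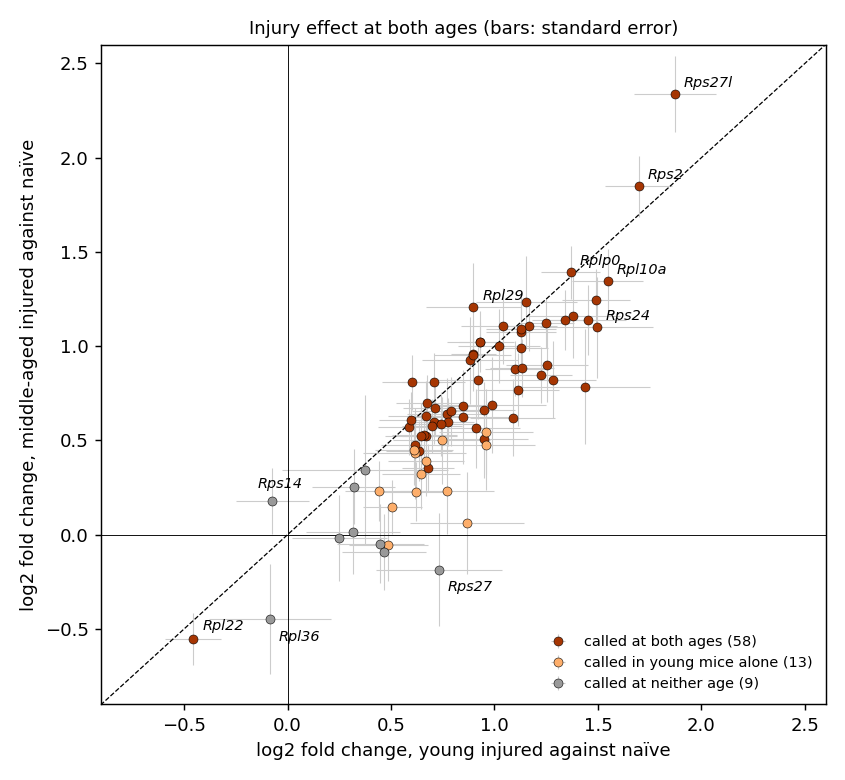
Log2 fold change after injury in young (horizontal axis) and middle-aged mice (vertical axis) for 80 ribosomal protein genes (Rpl39l is left out), with bars of 1 standard error and a dashed line of equal change. Rps27l and Rps2 lie highest on both axes and Rpl22 lowest, and most genes lie below the dashed line.

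The stalk proteins form the arm of the large subunit that recruits elongation factors. Rplp0, its base, was at 91.3, 123 and 107 CPM in young naïve, 138, 134 and 102 CPM in middle-aged naïve, 279, 300 and 249 CPM in young injured and 325, 348 and 309 CPM in middle-aged injured pools. The injured pools were all above the naïve pools, and Rplp0 rose at both ages (log2 fold change 1.37 ± 0.14, SE, adjusted p = 1.62e-06, and 1.39 ± 0.14, adjusted p = 1.15e-06). Rplp2 was at 19.9 to 21.5 CPM in young naïve and 41.1 to 47.5 CPM in young injured pools, and at 23.7, 41.0 and 21.9 CPM in middle-aged naïve against 44.9, 49.5 and 38.4 CPM in middle-aged injured pools. It rose at both ages (1.09 ± 0.21 and 0.62 ± 0.20), although in middle-aged mice the groups overlapped and the call was lost without middle-aged naïve replicate 1 or 3 or middle-aged injured replicate 2 (log2 fold changes from 0.46 to 0.96 over the pools left out). Rplp1, the third stalk protein, was not called, at 48.8 to 59.6 CPM in young naïve and 61.7 to 68.1 CPM in young injured pools (0.32 ± 0.20, adjusted p = 0.191) and 54.1 to 84.2 CPM against 55.7 to 93.7 CPM in middle-aged mice (0.25 ± 0.20, adjusted p = 0.285).

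Rps27l and Rps2 had the largest changes among the genes called with a mean level of at least 1 on the log2 CPM scale. Rps27l (chr9:66946086-66949516 on GRCm38), a paralog of Rps27 that p53 can induce, was at 6.65, 10.6 and 10.1 CPM in young naïve and 8.45, 7.03 and 5.68 CPM in middle-aged naïve pools. After injury it was at 35.8, 31.2 and 33.1 CPM in young and 34.3, 34.4 and 38.2 CPM in middle-aged mice. The lowest injured pool was thus far above the highest naïve pool, with log2 fold changes of 1.87 ± 0.20 (adjusted p = 1.95e-06) and 2.34 ± 0.20 (adjusted p = 2.27e-07). Rps2 (chr17:24718116-24721929), which lines the path by which mRNA enters the small subunit, was at 23.5 to 37.3 CPM in the 6 naïve and 94.7 to 111 CPM in the 6 injured pools. It rose by 1.70 ± 0.16 (adjusted p = 6.43e-07) and 1.85 ± 0.16 (adjusted p = 2.43e-07), again with no overlap.

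Rpl10a and Rps24 completed the 4 largest rises in young mice. Rpl10a was at 11.9 to 13.8 CPM in young naïve, 13.2 to 17.4 CPM in middle-aged naïve, 35.8 to 37.9 CPM in young injured and 30.4 to 44.0 CPM in middle-aged injured pools. Its log2 fold changes were 1.55 ± 0.17 and 1.35 ± 0.17. Rps24, a small subunit protein mutated in some patients with Diamond-Blackfan anaemia, was at 17.1 to 19.7 CPM in young naïve and 49.3 to 54.2 CPM in young injured pools (1.49 ± 0.27, adjusted p = 0.000319). In middle-aged naïve tissue it was at 18.4 and 17.1 CPM in replicates 1 and 3 but at 44.0 CPM in replicate 2, against 54.1 to 60.02 CPM after injury (1.1 ± 0.27, adjusted p = 0.00269). The smallest rises called were those of Rpl9 (0.44 ± 0.16), Rpl26 (0.49 ± 0.19) and Rps3 (0.51 ± 0.14) in young and of Rps6 (0.35 ± 0.13), Rpl27 (0.44 ± 0.16) and Rps26 (0.48 ± 0.16) in middle-aged mice. Of these 6 calls, the one for Rps3 held when any single pool was left out. Rpl9 was lost without young naïve replicate 1 or any young injured pool (0.34 to 0.52), and Rpl26 without young naïve replicate 1 or 2 or any 1 of the 6 injured pools (0.36 to 0.58). Rps6 was lost without middle-aged naïve replicate 3 or middle-aged injured replicate 2 (0.23 to 0.45), Rpl27 without middle-aged naïve replicate 1 or 3 or middle-aged injured replicate 2 or 3 (0.28 to 0.70), and Rps26 without middle-aged naïve replicate 1 or 3 or middle-aged injured replicate 3 (0.38 to 0.64).

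Rpl22 was the only member that fell. It encodes an RNA-binding large subunit protein that is dispensable for translation in most cells, and mice that lack it make more of its paralog Rpl22l1. Its gene (chr4:152325742-152334071) was at 133, 144 and 150 CPM in young naïve and 152, 186 and 123 CPM in middle-aged naïve pools. After injury it was at 100, 108 and 103 CPM in young and 105, 97.7 and 111 CPM in middle-aged mice, and the highest injured pool was below the lowest naïve pool. The log2 fold changes were -0.46 ± 0.14 (adjusted p = 0.0107) and -0.55 ± 0.14 (adjusted p = 0.00289). When pools were scaled by their library totals alone, which raised the median of all genes tested to 0.20 in young mice, the young change was -0.26 and no longer called (adjusted p = 0.0986). All other scalings kept both calls.

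The 9 members called at neither age had small or uncertain estimates. In young mice they ranged from -0.08 ± 0.29 for Rpl36 to 0.73 ± 0.31 for Rps27, and in middle-aged mice from -0.45 ± 0.29 for Rpl36 to 0.34 ± 0.40 for Rpl24. Rpl36 was at 63.4 to 77.3 CPM in young naïve and 62.3 to 73.5 CPM in young injured pools, which overlapped, and at 180 CPM in middle-aged naïve replicate 2. Rps14 had estimates of -0.07 ± 0.18 and 0.18 ± 0.18. Rpl38 had 0.45 ± 0.21 in young mice (adjusted p = 0.0864) and -0.05 ± 0.21 in middle-aged mice. A missing call does not show that these genes stayed at their naïve level.

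Rpl5, Rpl11, Rpsa, Rps27a and Rps6 rose at both ages. Rpl5 was at 87.1 to 97.2 CPM in young naïve and 189 to 202 CPM in young injured pools (1.1 ± 0.15), and at 90.4 to 145 CPM against 196 to 219 CPM in middle-aged mice (0.88 ± 0.15). Its partner Rpl11 had lower levels, 12.4 to 17.0 CPM in young naïve and 22.3 to 25.8 CPM in young injured pools (0.77 ± 0.19), with a change of 0.64 ± 0.19 in middle-aged mice. Injured and naïve pools did not overlap at either age for both genes. Rpsa, also known as a laminin receptor, was at 67.9 to 127 CPM in naïve and 142 to 200 CPM in injured pools and rose by 1.02 ± 0.20 and 1.0 ± 0.20. Rps27a, which is made as a fusion with ubiquitin, was at 46.3 to 73.8 CPM in naïve and 76.6 to 93.5 CPM in injured pools and rose by 0.59 ± 0.15 and 0.61 ± 0.15. Rps6 was at 65.0 to 68.0 CPM in young naïve and 102 to 113 CPM in young injured pools (0.68 ± 0.13, adjusted p = 0.000406), and at 77.8 to 106 CPM against 114 to 133 CPM in middle-aged mice (0.35 ± 0.13, adjusted p = 0.0268).

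**Figure D4:**
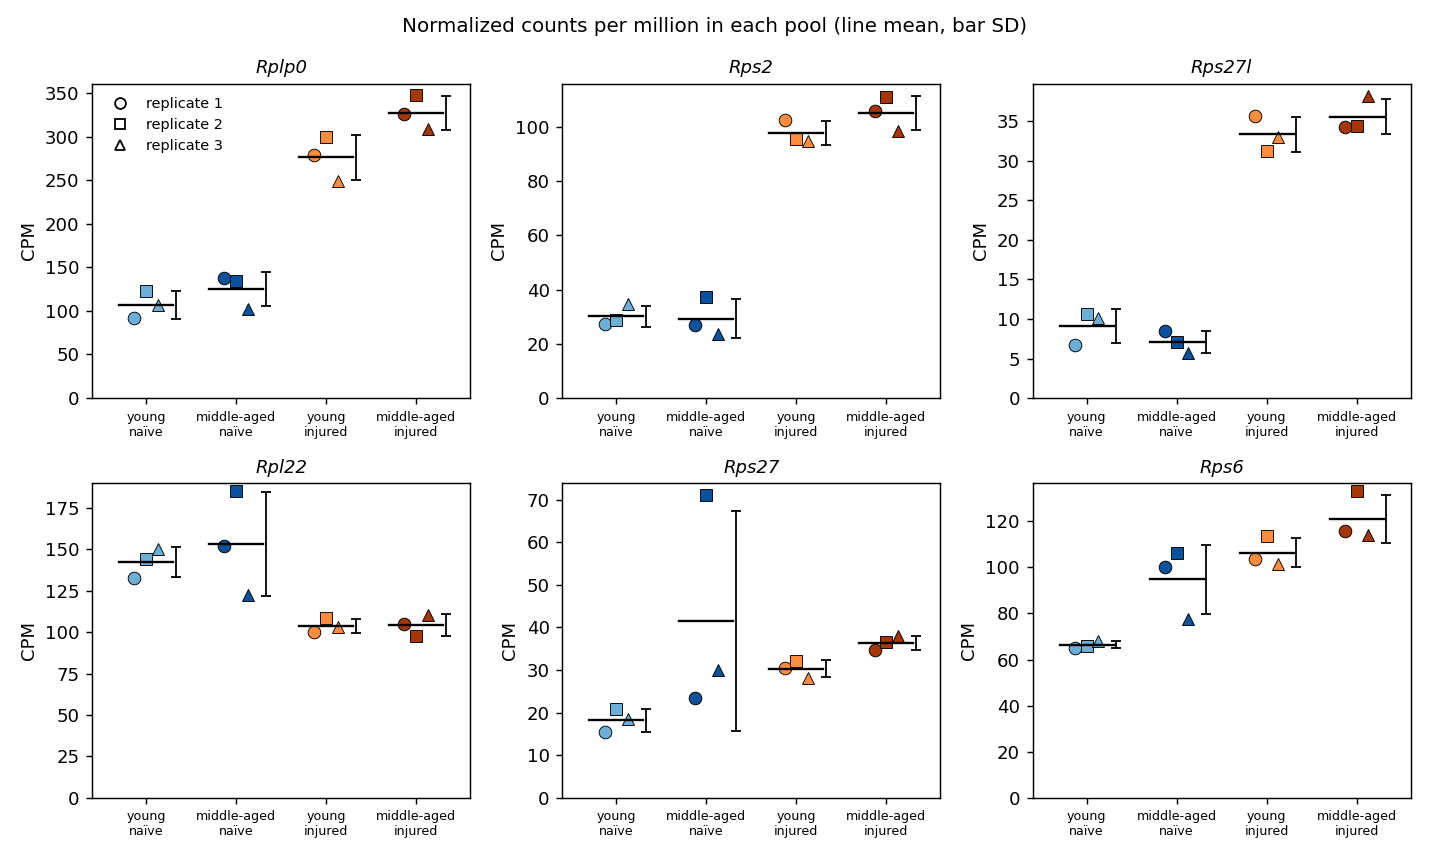
Normalized CPM (vertical axes from 0, a scale for each gene) of 6 ribosomal protein genes in each pool by group, with a line at the mean and a bar of 1 SD. Rplp0, Rps2 and Rps27l are higher in all injured pools and Rpl22 is lower, while Rps27 has 1 middle-aged naïve pool at 71.0 CPM and Rps6 is higher in the middle-aged than in the young naïve pools.

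Paralogs and their parents did not always change alike. The log2 ratio of their counts within a pool does not depend on how libraries are scaled, and it was compared between injured and naïve pools by a 2-sided exact permutation test with labels exchanged within each age (400 arrangements, smallest possible p = 0.005). Enough counts were present for 5 pairs, over which p-values were adjusted. The log2 ratio of Rps27l to Rps27 was -1.21, -0.97 and -0.86 in young naïve pools and 0.23, -0.04 and 0.23 in young injured pools. In middle-aged mice it was -1.46, -3.33 and -2.39 against -0.01, -0.09 and 0.01. Rps27l thus had fewer counts than Rps27 in naïve pools and about as many in injured pools, with no correction for gene length. This was a shift of 1.76 (exact permutation p = 0.005, adjusted p = 0.00625, 6 against 6 pools). Rps27 itself was not called in the edgeR fit to all pools. It was at 15.5 to 20.9 CPM in young naïve and 28.2 to 32.2 CPM in young injured pools (0.73 ± 0.31, adjusted p = 0.0564). In middle-aged mice, with 71.0 CPM in naïve replicate 2, the change was -0.19 ± 0.30. Without that replicate the middle-aged change was 0.45 and was called (adjusted p = 0.0261), and so was the young change of 0.73 (adjusted p = 0.000557). The young call thus depended on the setting. It was missing in 13 of 22 settings, the fit to all pools among them, while DESeq2 made it (0.74, adjusted p = 0.0346).

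The ratio of Rpl22l1 to Rpl22 shifted by 0.69 (exact permutation p = 0.005, adjusted p = 0.00625), from means of -2.13 ± 0.36 and -1.73 ± 0.21 in young and middle-aged naïve pools to -1.33 ± 0.09 and -1.14 ± 0.16 after injury (SD, n = 3). All injured pools were above all naïve pools. Rpl22l1 alone was not called, with log2 fold changes of 0.32 ± 0.23 and 0.02 ± 0.23. The ratio of Rpl7l1 to Rpl7 shifted by 0.37 with the same p (Rpl7l1 0.93 ± 0.11 and 1.02 ± 0.11, Rpl7 0.64 ± 0.18 and 0.52 ± 0.18). The Rpl7 call in middle-aged mice was lost without middle-aged naïve replicate 1 or 3 or middle-aged injured replicate 2 (0.39 to 0.83), and with offsets for GC content and length. The ratio of Rpl36al to Rpl36a shifted by 0.15 (exact permutation p = 0.275), and by 0.23 without young naïve replicate 1 (exact permutation p = 0.04). Rps4l, annotated as a transcribed pseudogene and so no member, became rarer relative to Rps4x, an X-linked small subunit gene, with a shift of -1.31 (exact permutation p = 0.005, adjusted p = 0.00625). Rps4x itself rose by 1.25 ± 0.20 and 0.90 ± 0.20.

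Rpl39l, a paralog of Rpl39 known mainly from male germ cells, had 0 counts in all 6 naïve pools. It had 12, 1 and 11 counts in young injured and 16, 0 and 12 counts in middle-aged injured pools. Against the level that 3 counts over the naïve group would give, the summed injured counts were 7.21-fold higher in young and 9.03-fold higher in middle-aged mice. The 3 counts are a set floor, and these folds are no lower bound for single pools, since replicate 2 had 1 count in young and 0 counts in middle-aged injured mice. The calls (adjusted p = 0.0372 and 0.0224) were not stable. In young mice the call was lost without any 1 young naïve pool, young injured replicate 1 or 3 or middle-aged injured replicate 3 (adjusted p up to 0.0862). In middle-aged mice it was lost without middle-aged naïve replicate 3 or middle-aged injured replicate 1 or 3 (adjusted p up to 0.0661). Its parent Rpl39 was at 4.80 to 6.24 CPM in young naïve and 13.3 to 16.1 CPM in young injured pools (1.44 ± 0.31, adjusted p = 0.00138). In middle-aged mice it was at 6.34, 16.1 and 6.08 CPM in naïve and 17.3, 14.5 and 16.9 CPM in injured pools, which overlapped through naïve replicate 2 (0.78 ± 0.30, adjusted p = 0.0385). That call was lost without middle-aged naïve replicate 1 or 3, young injured replicate 1 or 2 or any 1 middle-aged injured pool, and without middle-aged naïve replicate 2 the change was 1.39.

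**Figure D5:**
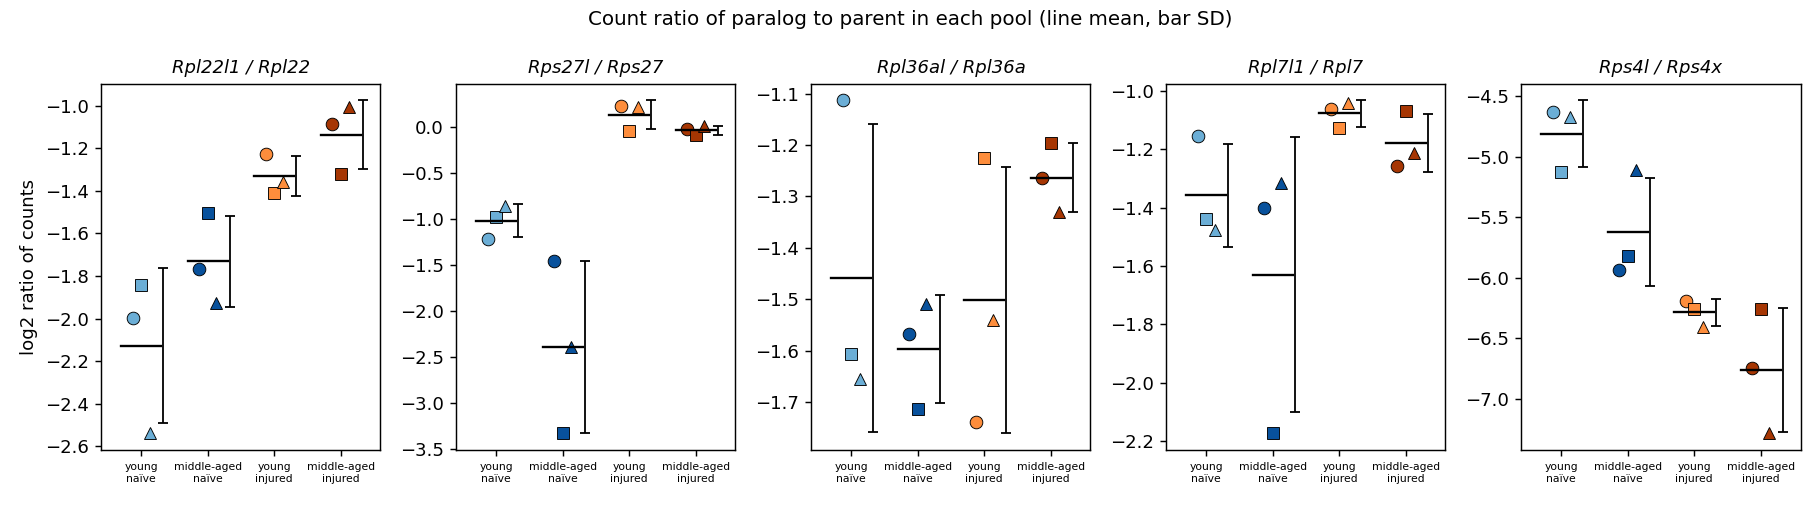
Log2 ratio of the counts of a paralog to those of its parent gene (vertical axes, a scale for each pair) in each pool by group, with a line at the mean and a bar of 1 SD. The ratios Rps27l to Rps27 and Rpl22l1 to Rpl22 are higher in all injured pools than in all naïve pools, and Rps4l to Rps4x is lower.

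Age differences in naïve tissue were few and depended on single pools. Between middle-aged and young naïve mice 5 members were called, all higher (Rps6, Rps3, Rpl26, Rps15 and Rps27), where 3.80% of all genes tested were called, 2.02% higher and 1.78% lower, and 33 members and 2910 of all 15866 genes tested had an unadjusted p under 0.05. The median log2 fold change of the 81 members was 0.33, against 0.01 for all genes tested. Positive estimates were found for 76 of the 81 members and for 8191 of all 15866 genes tested. Relative to the young naïve mean, the median member was at 0.17, 0.68 and 0.03 on the log2 scale in middle-aged naïve replicates 1, 2 and 3. Replicate 2 was the highest pool of its group for 77 of the 81 members, and for 38.5% of all genes tested. Without it 0 members were called and the median was 0.09. The count was 13 without middle-aged naïve replicate 3 and 7 without middle-aged naïve replicate 1. It was 0 without young naïve replicate 1 or 2 or middle-aged injured replicate 1, 2 without middle-aged injured replicate 2, and 1 when any other single pool was left out, injured pools entering through the shared estimate of spread.

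Rps6 was at 65.0, 66.1 and 68.0 CPM in young naïve and at 100, 106 and 77.8 CPM in middle-aged naïve pools (0.51 ± 0.13, adjusted p = 0.0407). All middle-aged pools were above all young pools. Rps3, which binds DNA repair proteins as well as the ribosome, was at 364, 406 and 389 CPM against 530, 746 and 497 CPM (0.61 ± 0.14, adjusted p = 0.0310), also with no overlap. Rpl26, known to bind Trp53 mRNA, was at 80.5, 105 and 111 CPM against 160, 221 and 115 CPM (0.74 ± 0.19, adjusted p = 0.0470). Rps15 was at 119, 132 and 144 CPM against 158, 322 and 201 CPM, and Rps27 at 15.5, 20.9 and 18.4 CPM against 23.3, 71.0 and 30.005 CPM (0.78 ± 0.20 and 1.18 ± 0.31). For these 2 genes the lowest middle-aged pool was just above the highest young pool and replicate 2 was far above both. None of the 5 calls held without middle-aged naïve replicate 2. The myeloid sum was highest in this replicate (244 CPM against 164 and 198 CPM in its group), and whether that plays a part was not tested.

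The excess in middle-aged naïve replicate 2 differed between members. Relative to the mean of the other middle-aged naïve pools, Rps27 was higher by 1.40, Rpl39 by 1.3, Rps24 by 1.28 and Rpl36 by 1.23 on the log2(CPM + 0.5) scale, with a median of 0.60 over members and -0.02 over all genes tested. Rps27l and Rpl7l1, which rose after injury at both ages, were at -0.01 and -0.05. Across 81 members the Spearman correlation of this excess with the young injury change was -0.05, and with exon length -0.00047, given as descriptions.

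In injured tissue edgeR called 0 of 81 members, where 1.15% of all genes tested were called (0.240% higher and 0.908% lower), 2 members and 1527 of all genes tested had an unadjusted p under 0.05, and DESeq2 called 0, with 4 at an unadjusted p under 0.05. The smallest adjusted p was 0.304. The estimates were nonetheless positive for 80 of 81 members, and for 7984 of all 15866 genes tested. The median of the members was 0.16 (1.12-fold), against 0.0022 for all genes tested. Each middle-aged pool was above each young pool for 30 of the 83 members after injury and for 19 in naïve tissue, an order that 11.1% and 7.77% of all genes tested had.

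Levels differed widely between members. Per kilobase of annotated exon and averaged over pools, Rpl4 had the highest level (875 CPM per kilobase), followed by Rpl27 (334) and Rps15 (299), while the median member had 34.4 CPM per kilobase. Besides Rpl10l, Rpl3l and Rpl39l, the lowest level was that of Rpl24 (1.52 CPM per kilobase), whose exons overlap another annotated gene. Such levels depend on how shared reads were counted. Of the 83 members, 82 shared at least 1 stretch of 31 bases with an annotated pseudogene, and a median of 73.2% of a member's stretches were found in no other gene, with the lowest value for Rpl36 (5.95%). The 268 ribosomal protein pseudogenes in the table held 9080 counts, 0.688% of the counts of the members. Across 81 tested members, the share of unshared stretches had a Spearman correlation of 0.05 with the change after injury in young mice, -0.06 with that in middle-aged mice and -0.42 with the level per kilobase, as descriptions.

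Many members also host small nucleolar RNAs, which guide the chemical modification of ribosomal RNA, in their introns. Of the tested members 29 held such a gene within their span, and in 24 of them it overlapped annotated exons. All 29 were called in young mice, with a median log2 fold change of 0.93. Of the 52 members without, 43 were called, with a median of 0.76, where 54.6% of all genes tested were called. In middle-aged mice 23 of 29 and 36 of 52 were called, with medians of 0.68 and 0.62, where 58.5% of all genes tested were called. These counts were not tested against each other. The small nucleolar RNA genes themselves had few counts, 437 in all over 57 genes and 12 pools.

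Other genes of the translation machinery were counted in the same fit, where 28.3% of all genes tested rose and 26.3% fell in young mice, and 29.2% rose and 29.3% fell in middle-aged mice. Some genes stand in more than 1 of the lists below, and the lists were not tested against these shares. Of ribosomal proteins with other names 3 were tested, and Rps3a1, Fau and Rack1 rose at both ages (0.84 ± 0.14, 0.93 ± 0.23 and 1.69 ± 0.15 in young mice). Rack1, a scaffold on the small subunit, was at 84.4 to 131 CPM in naïve and 287 to 345 CPM in injured pools. Among 25 transcripts outside the set known or reported to carry a TOP motif, 19 rose and 0 fell in young mice (median 0.62). In middle-aged mice 16 rose and 1 fell (Gas5, a noncoding host of small nucleolar RNAs), with a median of 0.55. These 25 include Rack1 and Fau and several genes counted again in the lists that follow. Pabpc1, the poly(A)-binding protein, was at 264 to 385 CPM in naïve and 1228 to 1472 CPM in injured pools and rose by 2.07 ± 0.12 and 1.99 ± 0.11.

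Elongation and termination factors gave 8 higher and 2 lower of 13 in young mice and 9 and 2 in middle-aged mice. Eef1a1, the main carrier of aminoacyl-tRNA to the ribosome, rose by 1.35 ± 0.12 and 1.3 ± 0.12. Eef1a2, its copy in neurons and muscle, fell by 1.65 ± 0.34 and by 2.34 ± 0.34 on the log2 scale. Middle-aged naïve replicates 1, 2 and 3 had 111, 338 and 163 CPM of Eef1a2, against 31.4 to 47.2 CPM in middle-aged injured pools. The sum of 6 neuron markers was 893 CPM or more in naïve and 558 CPM or less in injured pools. The 6 markers did not move together, with 0 higher and 4 lower in young and 1 higher (Slc17a6) and 4 lower in middle-aged mice, and their part in the change of Eef1a2 was not tested. Of 40 initiation factors 15 rose and 7 fell in young mice, and 16 and 7 in middle-aged mice, so that the called share was close to that of all genes tested (54.6% and 58.5%). Eif4a1, the helicase that unwinds mRNA for scanning, rose by 1.43 ± 0.14 and 1.66 ± 0.14, and its paralog Eif4a2 fell by 0.79 and by 0.74.

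Of 51 ribosome biogenesis genes 27 rose and 1 fell in young mice, and 28 rose and 2 fell in middle-aged mice, with medians of 0.52 and 0.53. The nucleolar helicase Ddx21 rose by 1.49 ± 0.13 and 1.72 ± 0.13 and nucleophosmin (Npm1) by 1.65 ± 0.17 and 1.49 ± 0.17. Sbds, which acts late in large subunit maturation, fell by 0.79 and by 0.81. Of 10 genes listed as chaperones of ribosomal proteins, 4 rose and 1 fell at each age. Those that rose included Naca, Btf3 and Nap1l1, which are not dedicated to ribosomal proteins. The 1 that fell was Tsr2, the escort of Rps26, by 0.97 and by 1.09. Among 27 genes of mTOR, Myc and TOP control, 7 rose and 6 fell in young mice, and 10 rose and 6 fell in middle-aged mice, which in young mice was close to the shares of all genes tested in both directions. Eif4ebp1, an inhibitor of cap-dependent initiation, was at 0.323 to 1.36 CPM in naïve and 8.45 to 13.3 CPM in injured pools (4.2 ± 0.39 and 3.79 ± 0.36). Myc, which drives ribosome production, was at 4.83 to 14.8 CPM in naïve and 40.5 to 59.2 CPM in injured pools (2.94 ± 0.21 and 2.13 ± 0.19). Among those that fell, Ddit4 was lower by 1.09 and by 1.24, and Rps6ka2 by 0.98 and by 0.81. Mycn, at most 2.15 CPM in any pool, fell by 1.63 in young mice and was not called in middle-aged mice. Of 4 genes of the p53 checkpoint that senses free ribosomal proteins, Trp53 (1.67 ± 0.18 and 1.69 ± 0.18) and Mdm2 (0.81 ± 0.13 and 0.95 ± 0.13) rose and none fell. The other 2, Mdm4 and Cdkn1a, were not called at either age.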

How the data were processed

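Reads of 12 libraries were checked by the authors with FastQC 0.11.4 and mapped to GRCm38 with TopHat 2.0.10 and bowtie 1.1.2. The deposited values are raw counts of reads per gene from featureCounts, with no normalization. The annotation release, the strand setting and the handling of reads shared between genes are not given in the sources used here, so paralogs, pseudogenes and overlapping genes may have exchanged reads. Groups and replicate numbers were taken from the sample titles. Tissue of 5 mice was pooled. Whether the 3 replicates of a group came from separate mice is not given in the sources used here, so p-values measure only the spread between these samples, which may be technical.

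Of 46078 gene identifiers, 45229 had a symbol and position in GENCODE M21 (GRCm38). Counts were tested with edgeR 4.0.16 in R 4.3.3 (TMM factors, filterByExpr, 1 coefficient per group, quasi-likelihood F test, Benjamini-Hochberg adjustment over 15866 genes). CPM values use TMM-scaled library sizes. Mean log2 CPM used a prior count of 2. Alternatives were other scalings and filters, DESeq2 1.42.0, offsets for GC and length, fits to the pools compared alone, a replicate block, and leaving out each pool. Paralog ratios (0.5 added to counts, at least 10 counts in at least 6 pools) were tested in SciPy 1.17.1. The edgeR script was tested on simulated counts.

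Genes named are those with a stated role, the paralog pairs, the 4 highest and 4 lowest called members per comparison (mean log2 CPM of at least 1), members called against the majority, and the 3 highest and 3 lowest levels per kilobase. For other lists, up to 3 called genes at each end were eligible. Members highest in middle-aged naïve replicate 2, those described among the uncalled, Gas5, Rps27l and Rpl7l1 in that replicate were named after their values were seen. Members and lists were chosen with earlier results of these data known. Start regions came from RefSeq (GRCm38.p6). They were not at hand for 20 members, and no protein sequence or genome was used.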

Additional observations from a re-analysis of the deposited data

How the results depend on the processing

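The median change of the ribosomal protein genes after injury was positive under all alternatives run, with 67 to 75 genes called and medians of 0.80 to 0.90 in young mice when pools were left out, and 48 to 72 called and 0.54 to 0.91 in middle-aged mice. Scaling by library totals gave a median of 1.05 in young mice, where the median of all genes moved by 0.20. The naïve age comparison was the least stable, with 0 to 13 calls and medians of 0.0887 to 0.46 when pools were left out, 8 calls by library totals, 16 without a filter on low counts, 11 by DESeq2 and 0 from the naïve pools alone. In injured mice pools left out gave 0 calls and medians of 0.13 to 0.20, and the injured pools alone gave 1 call. The difference between the ages gave 0 calls and medians of -0.30 to 0.0598. The cause was not tested, beyond the effect of middle-aged naïve replicate 2.

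Same-numbered pools did not deviate together (correlations of -0.11 to 0.15, with 5 of 12 pools closest to their own number). With replicate numbers as a block, 73, 64, 6, 0 and 0 genes were called in the 5 comparisons, in place of 72, 59, 5, 0 and 0.

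Without mitochondrial genes in the total, the mean shares were 0.652% (young) and 0.904% (middle-aged) in naïve pools and 1.28% and 1.42% in injured pools. Without Rpl4 they were 0.466% and 0.616%, and 0.945% and 1.02%. Leaving out pools gave 0.560% to 0.594% and 0.679% to 0.822% in naïve, and 1.12% to 1.19% and 1.24% to 1.29% in injured pools. In middle-aged mice the uncalled Rpl22l1 changed sign by upper-quartile scaling (-0.0253), with GC and length offsets (-0.0105) and when pools were left out (-0.20 to 0.32), and Rps27 ranged from -0.47 to 0.45, the latter without middle-aged naïve replicate 2. The ratio of Rpl36al to Rpl36a ranged from 0.0762 to 0.23. Depth limits Rpl39l, Rpl3l and Rpl10l, and 3 pools a group limit the age comparisons.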

Other observations

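The ribosome of mitochondria, which translates the few mitochondrial mRNAs and is built from other nuclear genes, gave a different count from the cytosolic one. Of 77 mitochondrial ribosomal protein genes tested, 1 rose and 7 fell in young mice, and 8 rose and 7 fell in middle-aged mice, where 54.6% and 58.5% of all genes tested were called, with median log2 fold changes of -0.05 and 0.00109. Mrps6 rose at both ages (0.62 ± 0.19 and 0.79 ± 0.19), from 15.6 to 24.8 CPM in naïve pools to 27.1 to 38.2 CPM in injured pools. Mrpl35 (by 1.27 and by 1.12 on the log2 scale) and Mrps36 (by 0.83 and by 1.24) fell at both ages. The difference between the ribosomes of cytosol and mitochondria was not tested.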
